A study of Mus musculus with 12 samples.

Results

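The small leucine-rich proteoglycans are secreted matrix proteins built around a curved stack of leucine-rich repeats, most of them carrying chondroitin, dermatan or keratan sulphate chains. The genes described here are Dcn, Bgn, Lum, Ogn, Fmod, Omd, Aspn and Prelp, taken by their symbol in the deposited probe annotation. They are 8 of 28908 genes on the array and are read by 15 of its 45281 probes. The family was chosen from the log2 differences between metastatic and primary tumours measured on these same arrays, so its values in metastatic tumours are a description. No p-value is given for a member there, and counts of members past the threshold are printed only beside the share over all genes and support nothing.

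Members of this family coat collagen fibrils and set the spacing and width of the fibrils, and several hold growth factors such as TGF-beta in the matrix. By sequence, decorin, biglycan and asporin form class I, lumican, fibromodulin, osteomodulin and Prelp class II, and osteoglycin belongs to class III. In and around the brain, fibroblasts of the meninges and of the perivascular space are known for expressing several of them, while neurons and granule neuron progenitors are not a known main source.

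Tumours of the Sonic Hedgehog (SHH) subgroup of mouse medulloblastoma, a cerebellar tumour, were profiled on 12 Illumina BeadChip arrays. There were 4 A1G metastatic tumours and 4 A1G primary tumours, both from mice labelled Math1-cre;A1G;Ptch1+/-, and 4 primary tumours from Ptch1+/- mice, called Ptch1het. All 12 thus came from mice with 1 disrupted copy of Ptch1, the receptor that restrains Hedgehog signalling, and the series names ATOH1 as a driver of the A1G tumours. Math1-cre expresses the Cre recombinase from regulatory sequence of Math1 (Atoh1), which is active in granule neuron progenitors. The labels leave A1G unexpanded, give neither age nor sex nor where the metastases lay, and for metastatic tumours 2 and 3 the genotype is worded otherwise than for 1 and 4. Nothing states that tumours came from separate animals, so each p-value reflects only the spread of these samples, which may be technical.

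Of the 8 genes, 7 lie in clusters of the family in the GRCm38.p6 assembly. Aspn, Omd and Ogn follow each other on chromosome 13 beside Ecm2, Dcn and Lum lie on chromosome 10 beside Kera and Epyc, and Prelp and Fmod lie on chromosome 1 beside Optc. In each cluster, 0 other protein-coding genes start between these neighbours. Bgn lies on chromosome X away from the others. RefSeq upstream sequences (GRCm38.p6) were matched for 6 of the 8 genes. The 250 bases before the start are shown for the chromosome 13 neighbours, of which Ogn alone read far above background in metastatic tumours, and for Bgn and Prelp, which were high there. They were searched on both strands for TATAAA (the TATA box), CACCTG (the E-box of Snail and Zeb factors), TGANTCA (AP-1) and GGGCGG (GC box), and capitals mark each match. The windows are Ogn at chr13:49607765-49608014 (plus strand), Omd at chr13:49582212-49582461 (plus), Aspn at chr13:49544193-49544442 (plus), Bgn at chrX:73483351-73483600 (plus) and Prelp at chr1:133921402-133921651 (minus). The Prelp window precedes a RefSeq transcript start that lies inside the gene's span.
Ogn: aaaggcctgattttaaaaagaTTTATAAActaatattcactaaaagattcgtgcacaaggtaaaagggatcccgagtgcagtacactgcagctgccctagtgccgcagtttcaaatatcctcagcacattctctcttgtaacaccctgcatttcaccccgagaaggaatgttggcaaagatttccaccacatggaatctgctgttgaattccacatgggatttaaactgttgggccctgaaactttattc
Omd: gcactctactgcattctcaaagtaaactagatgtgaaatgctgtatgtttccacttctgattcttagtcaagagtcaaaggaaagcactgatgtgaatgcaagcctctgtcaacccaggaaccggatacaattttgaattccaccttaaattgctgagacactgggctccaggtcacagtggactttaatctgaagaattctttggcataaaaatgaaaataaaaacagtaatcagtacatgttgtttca
Aspn: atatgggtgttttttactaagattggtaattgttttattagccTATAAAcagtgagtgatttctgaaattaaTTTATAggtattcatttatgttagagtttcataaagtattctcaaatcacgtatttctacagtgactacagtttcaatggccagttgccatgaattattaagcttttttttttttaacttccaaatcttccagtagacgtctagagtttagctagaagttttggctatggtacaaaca
Bgn: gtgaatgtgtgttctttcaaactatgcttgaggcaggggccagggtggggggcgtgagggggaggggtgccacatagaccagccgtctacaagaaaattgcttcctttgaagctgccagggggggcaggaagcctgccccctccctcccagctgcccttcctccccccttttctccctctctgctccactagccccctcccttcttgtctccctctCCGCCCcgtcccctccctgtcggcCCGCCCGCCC
Prelp: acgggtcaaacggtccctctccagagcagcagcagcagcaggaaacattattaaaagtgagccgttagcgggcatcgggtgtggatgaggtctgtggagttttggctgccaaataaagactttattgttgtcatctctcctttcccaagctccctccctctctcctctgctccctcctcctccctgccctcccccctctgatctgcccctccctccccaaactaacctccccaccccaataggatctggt
The Bgn window held 3 GGGCGG matches, 34, 10 and 6 bases before the start, the nearest pair overlapping. TATAAA matched in Aspn 207 and 178 bases before the start, and in Ogn at 229 and 227 bases, where the matches overlap on opposite strands. Omd and Prelp held 0 of the 4 motifs, and no CACCTG or TGANTCA was found in any of the 6 windows. Among 32851 upstream windows of the same length, 32.7% held GGGCGG, 12.4% TATAAA, 17.2% CACCTG and 6.75% TGANTCA. The G and C content was 42.0% for Ogn, 38.4% for Omd, 30.0% for Aspn, 64.4% for Bgn and 55.6% for Prelp, against a median of 52.4%. Such matches describe the letters of these windows and show no binding.

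All levels below are log2 signals after background correction and normalization between arrays, and all differences are on the same scale. The median probe of every array lies at 7.05, and signals at or below it are not resolved from background here. A gene entered the tests when its probe exceeded the array median on at least 4 of 12 arrays, which left 16724 genes. Of the members, 6 passed and 2, Omd and Aspn, did not. In the 10 tested genes of a list of granule progenitor and SHH markers, the mean level spanned 11.3 to 11.59 in A1G metastatic, 11.49 to 11.56 in A1G primary and 11.34 to 11.64 in Ptch1het tumours, while the probes for Atoh1 and Gli1 exceeded the median on 0 arrays. In bulk tumour RNA, fewer cells of a type and less RNA per cell cannot be told apart, and that holds for every difference below.

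Among class I members, decorin and biglycan read high in metastatic tumours and asporin stayed at background. Dcn, which encodes decorin, a collagen-binding proteoglycan that also binds TGF-beta, read 14.08, 14.32, 13.74 and 14.85 in A1G metastatic tumours, 10.87, 11.08, 12.34 and 10.14 in A1G primary tumours, and 11.04, 11.96, 13.20 and 11.51 in Ptch1het tumours. Every metastatic array lay above every other array, and Ptch1het tumour 3 came nearest. The difference between metastatic and A1G primary tumours was 3.14 (SE 0.49), a fold of 8.84, and that between metastatic and Ptch1het tumours was 2.32 (SE 0.49), a fold of 5.0.

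Bgn encodes biglycan, which binds collagen and, once released from the matrix, is known as a ligand of the Toll-like receptors Tlr2 and Tlr4. It read 14.36, 14.42, 14.45 and 13.92 in A1G metastatic tumours, 11.15, 11.07, 11.98 and 11.06 in A1G primary tumours, and 10.00, 11.45, 11.43 and 11.60 in Ptch1het tumours. The metastatic arrays again stood clear of all others. Metastatic tumours exceeded A1G primary tumours by 2.97 (SE 0.33; 7.85-fold) and Ptch1het tumours by 3.17 (SE 0.33; 8.98-fold). Aspn encodes asporin, a class I member with a run of aspartates and no sugar chain site of the decorin kind. Its single probe averaged 6.51 ± 0.12 in A1G metastatic, 6.45 ± 0.25 in A1G primary and 6.40 ± 0.16 in Ptch1het tumours (SD, n = 4 each), above the array median on 0 arrays.

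Class II held members of both kinds. Lum encodes lumican, a keratan sulphate proteoglycan that limits fibril width in the cornea and skin. Lum read 11.43, 11.45, 12.06 and 11.83 in A1G metastatic tumours, 8.96, 8.72, 10.96 and 8.83 in A1G primary tumours, and 10.25, 9.39, 11.02 and 10.24 in Ptch1het tumours. Neither other group overlapped the metastatic one, and A1G primary tumour 3 and Ptch1het tumour 3 came nearest to its lowest array. Metastatic tumours exceeded A1G primary tumours by 2.33 (SE 0.46; 5.01-fold) and Ptch1het tumours by 1.47 (SE 0.46; 2.76-fold), the smallest differences among the 5 members that were high in metastatic tumours.

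Prelp encodes a basic member that binds heparan sulphate and links basement membranes to collagen. It read 12.03, 13.29, 12.40 and 12.83 in A1G metastatic tumours, 9.22, 10.20, 10.41 and 9.06 in A1G primary tumours, and 8.09, 9.96, 9.70 and 9.81 in Ptch1het tumours. No array of either other group reached the metastatic range. The difference was 2.92 (SE 0.43; 7.57-fold) against A1G primary and 3.25 (SE 0.43; 9.50-fold) against Ptch1het tumours.

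Fmod encodes fibromodulin, which competes with lumican for a site on collagen and is abundant in tendon. It read 7.44, 7.41, 7.48 and 7.29 in A1G metastatic tumours, 7.34, 7.91, 6.32 and 7.23 in A1G primary tumours, and 6.47, 6.75, 6.72 and 6.34 in Ptch1het tumours. All values lay near the array median, the metastatic and A1G primary arrays overlapped, and no Ptch1het array exceeded the median. The difference between metastatic and A1G primary tumours was 0.20 (SE 0.26), with a 95% interval from -0.35 to 0.76, and it was -0.09 without A1G primary tumour 3. Against Ptch1het tumours it was 0.83 (SE 0.26), at least 1.28-fold when each dim array is set to its median. Omd encodes osteomodulin, a member found mainly in mineralised matrix. It read 6.18, 7.19, 7.33 and 6.91 in A1G metastatic tumours, 6.12, 6.56, 6.09 and 6.29 in A1G primary tumours, and 6.74, 6.21, 5.99 and 6.58 in Ptch1het tumours. It exceeded the array median only in metastatic tumours 2 and 3, and the groups overlapped.

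Ogn, the class III member, encodes osteoglycin (mimecan), a keratan sulphate proteoglycan that takes part in collagen fibril assembly. It read 11.07, 11.62, 11.75 and 11.61 in A1G metastatic tumours, 6.09, 7.17, 7.12 and 6.94 in A1G primary tumours, and 6.07, 7.17, 7.56 and 6.84 in Ptch1het tumours. Outside the metastatic group Ogn lay around background, above the array median on 2 of 4 A1G primary and 2 of 4 Ptch1het arrays, while all 4 metastatic arrays stood far above it. The difference was 4.68 (SE 0.31) against A1G primary and 4.60 (SE 0.31) against Ptch1het tumours. With dim arrays set to their median, these are folds of at least 21.3 and at least 19.8. The probe of Ogn with the highest signal gives these values. The size of the difference depended on how its probes were combined, as the values of each probe below show.

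**Figure D1:**
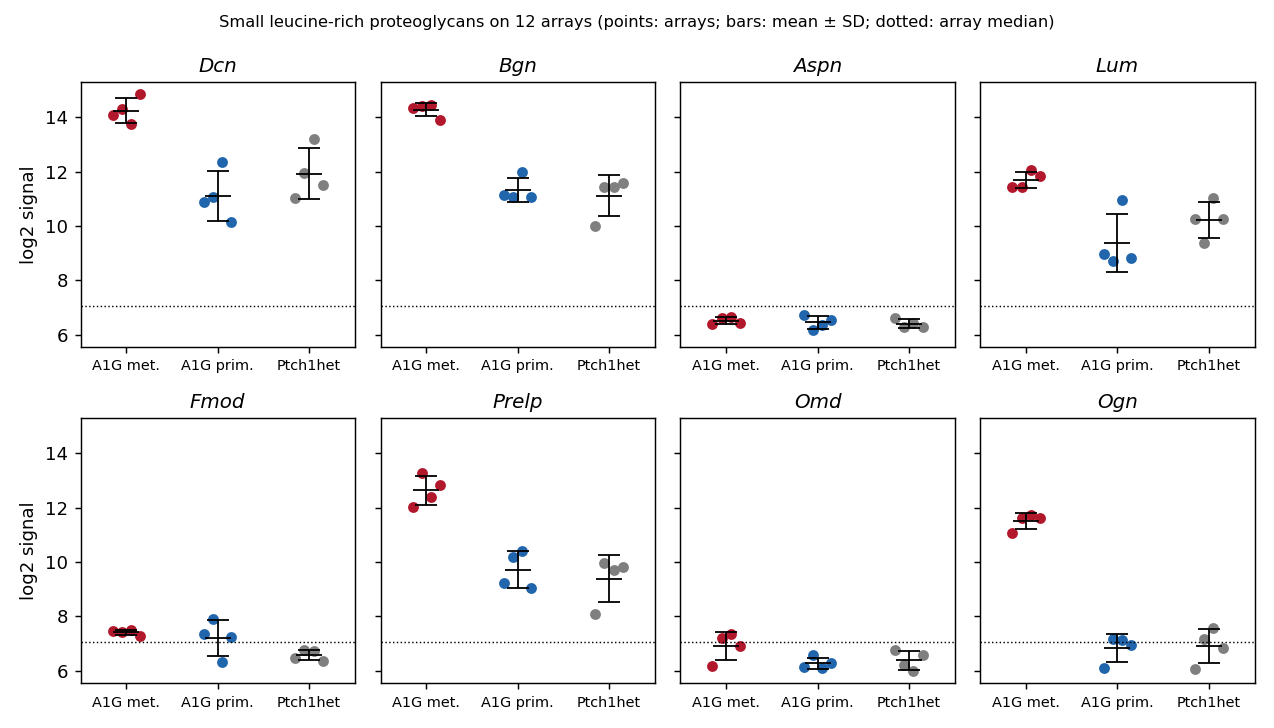
Log2 signal of each of the 8 genes (vertical axis) on each array, by group (horizontal axis: A1G metastatic, A1G primary, Ptch1het); points are arrays, bars the mean and SD of 4 arrays, and the dotted line is the array median of 7.05. Dcn, Bgn, Lum, Prelp and Ogn stand above all other arrays in metastatic tumours, Fmod and Omd lie around the median, and Aspn lies under it on every array.

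Counted over the family, 5 of the 6 tested members (Dcn, Bgn, Lum, Prelp and Ogn) were called higher in metastatic than in A1G primary tumours at an adjusted p under 0.05 (limma, Benjamini-Hochberg over all genes), and 0 were called lower. Over all 16724 genes, 749 (4.48%) were called higher and 124 (0.741%) lower. The same 5 members had every metastatic array above every A1G primary array, as had 1215 genes (7.27%). Since the members were picked with this contrast known, nothing is read from these counts. With no filter on signal, the median difference over all 8 members was 2.62, against -0.03 over all genes on the array.

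Against Ptch1het tumours, 4 of 6 (Dcn, Bgn, Prelp and Ogn) were called higher in metastatic tumours, beside 1032 genes (6.17%) called higher and 615 (3.68%) called lower overall. All 6 tested members had metastatic arrays above every Ptch1het array, as had 1284 genes (7.68%). This contrast uses the same metastatic arrays and differs in genotype as well as tumour site. Its count of members changed with the arrays used: it was 5 without Ptch1het tumour 3, with Lum added, 5 without A1G primary tumour 2, with Fmod added, and 6 without A1G primary tumour 3. The count over all genes changed too, from 791 to 1645 called in either direction on leaving out 1 array, so nothing is read from these counts. The median over the 8 members without the filter was 1.89, against -0.04 over all genes.

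Between A1G primary and Ptch1het tumours no member passed the test. Bgn differed by 0.20 (95% interval -0.51 to 0.90; limma adjusted p = 0.833), Prelp by 0.33 (-0.61 to 1.27; adjusted p = 0.777) and Ogn by -0.08 (-0.76 to 0.59; adjusted p = 0.939). Dcn differed by -0.82 (-1.88 to 0.23; adjusted p = 0.476) and Lum by -0.86 (-1.85 to 0.13; adjusted p = 0.428), so that a lower level in A1G primary tumours by more than 1 log2 unit lies inside both intervals. Fmod differed by 0.63 (0.08 to 1.18; adjusted p = 0.331) and was the 1 member with an unadjusted p under 0.05. For Omd and Aspn, fitted without the filter, the differences were -0.11 (adjusted p = 0.919) and 0.05 (adjusted p = 0.948).

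In this comparison limma called 0 of the 6 tested members, where 1 gene (0.00598%) was called higher and 5 (0.0299%) lower among 16724, and 2238 genes had an unadjusted p under 0.05. The 2 groups overlapped for all 6 members, while 1127 genes (6.74%) did not overlap in one direction or the other. The signs of the small differences rested on single arrays. Bgn became -0.03 without A1G primary tumour 3 and -0.18 without Ptch1het tumour 1, Prelp -0.10 without Ptch1het tumour 1, and Ogn 0.17 without A1G primary tumour 1.

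**Figure D2:**
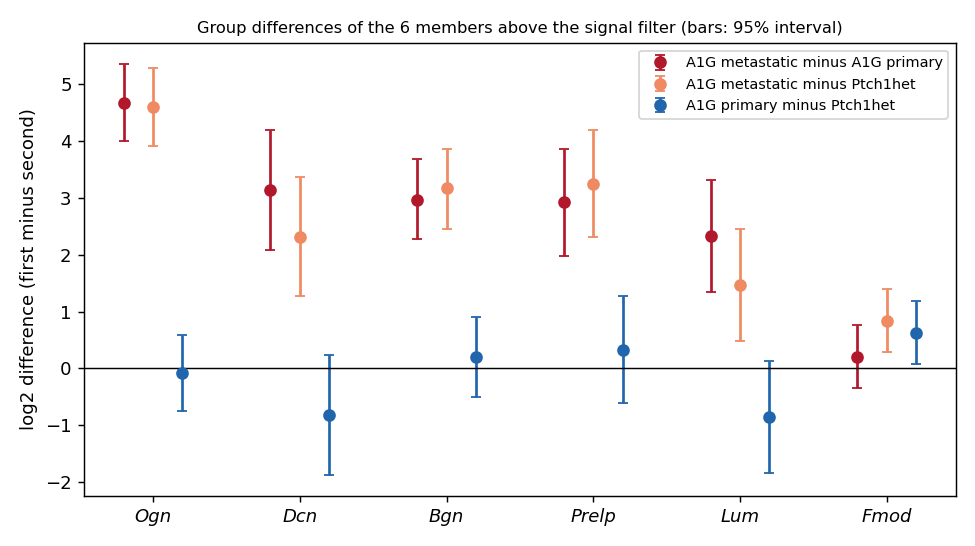
Log2 difference with its 95% interval (vertical axis) for the 6 tested members (horizontal axis) in the 3 comparisons, each as the group named first minus the group named after it. Ogn, Dcn, Bgn, Prelp and Lum lie between 1.47 and 4.68 in both comparisons of metastatic tumours, and in A1G primary minus Ptch1het tumours the intervals of all but Fmod span 0. Intervals in the comparisons of metastatic tumours are descriptions and no tests, because the family was chosen from values of those tumours.

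The probes of Dcn, Lum and Ogn agreed in direction. The Dcn values above come from the brightest of its 4 probes. Another bright Dcn probe differed by 3.27 (SE 0.45) between metastatic and A1G primary tumours, and the dimmer ones, above the array median on 1 of 4 A1G primary arrays each, by 2.30 (SE 0.38) and 1.53 (SE 0.24), at least 3.65-fold and at least 2.32-fold. The other Lum probe differed by 2.21 (SE 0.45), against 2.33 for the brighter one.

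The other Ogn probes were dim. They averaged 7.26 ± 0.21 and 7.26 ± 0.40 in metastatic tumours, against 6.26 ± 0.14 and 5.99 ± 0.21 in A1G primary tumours and 6.20 ± 0.12 and 6.03 ± 0.19 in Ptch1het tumours (SD, n = 4 each). Their differences between metastatic and A1G primary tumours were 1.00 (SE 0.13) and 1.27 (SE 0.19), and neither exceeded the median on any array outside the metastatic group, so background limits how large these differences can read. Averaging the 3 probes gave a difference of 2.84 for Ogn, against 4.68 with its brightest probe. The other Fmod probe exceeded the median on 0 arrays and differed by -0.07 (SE 0.17).

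**Figure D3:**
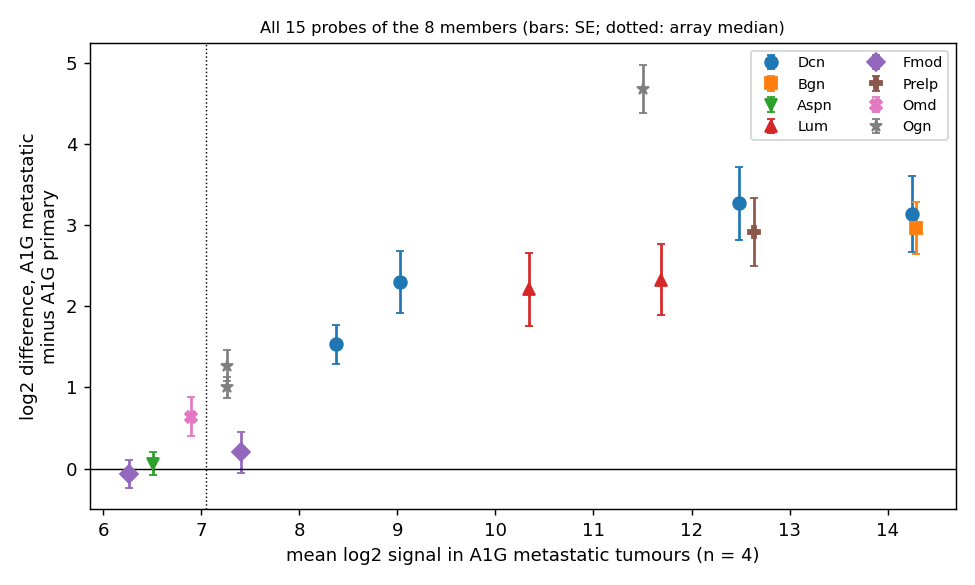
Each of the 15 probes, with its mean log2 signal in the 4 metastatic tumours (horizontal axis) and its log2 difference, A1G metastatic minus A1G primary (vertical axis, bars are the SE); the dotted line is the array median. Within Dcn and within Ogn, the dim probes, limited by background, show smaller differences, down to 1.53 for Dcn and 1.00 for Ogn.

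The values were also set out by gene neighbourhood. On chromosome 13, Ogn stood at 11.51 ± 0.30 in metastatic tumours against 6.83 ± 0.51 in A1G primary tumours, while the probes for its neighbours Aspn and Ecm2 exceeded the array median on 0 arrays and that for Omd on 2, so no size of difference can be set against that of Ogn. On chromosome 10, Dcn and Lum were both higher in metastatic tumours, and the probes for Kera and Epyc, which encode the cornea and cartilage members keratocan and epiphycan, exceeded the median on 0 arrays. On chromosome 1, Prelp differed by 2.92 between metastatic and A1G primary tumours, its neighbour Fmod, near the median, by 0.20, and the Optc probe stayed under the median throughout. A probe under the median shows that this probe gave no signal above background, not that the gene was silent.

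The other genes of the family, 10 in the list used, gave few signals. Only Chadl, Nyx and Tsku entered the tests, and limma called 0 of the 3 in any comparison, with 0 at an unadjusted p under 0.05 between metastatic and A1G primary tumours. Of the remaining 7, the probes for Kera, Epyc, Optc, Podnl1 and Ecm2 exceeded the median on 0 arrays, that for Podn (podocan) on 1 and that for Chad (chondroadherin, a cartilage member) on 3, all of them metastatic. Podn averaged 6.98 in metastatic tumours, 6.02 in A1G primary and 6.20 in Ptch1het tumours. Chad averaged 7.36 in metastatic, 6.31 in A1G primary and 6.05 in Ptch1het tumours. Without the signal filter, 2 of the 10 genes, Chad and Podn, were called higher in metastatic than in A1G primary tumours.

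In the fit over all 12 arrays, no enzyme that builds the sugar chains or processes the core proteins passed the test. The list held 27 genes, from the xylosyltransferases that start a chain to sulphotransferases and the protease Bmp1, which trims biglycan. Of 23 tested, limma called 0 between metastatic and A1G primary tumours, with a median difference of -0.10 and 4 at an unadjusted p under 0.05, beside 2969 of all 16724 genes. The smallest p belonged to B4galt1, a galactosyltransferase of glycans on many proteins, at 9.67 ± 0.22 in metastatic and 8.92 ± 0.33 in A1G primary tumours (SD, n = 4 each; difference 0.75, SE 0.21, adjusted p = 0.0589). Next came Chpf, a chondroitin-polymerizing factor (0.61, adjusted p = 0.146), Fam20b, a xylose kinase (-0.43, adjusted p = 0.196), and Csgalnact1, which starts chondroitin chains (-0.38, adjusted p = 0.208). With the replicate number as a block, 1 enzyme passed, B4galt1 at an adjusted p of 0.0179. With only the 2 groups compared, 2 passed, B4galt1 at 0.0435 and Chpf at 0.0313, and likewise with the block as well, at 0.0121 and 0.0466. B4galt1 alone passed without A1G primary tumour 1, Ptch1het tumour 2 or Ptch1het tumour 3.

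Most of the collagens that these proteoglycans bind rose in metastatic tumours. This list and the other gene lists were chosen with earlier results of these data known. Their p-values and counts in comparisons of metastatic tumours are therefore descriptions and give no independent support. Of 13 fibrillar, fibril-associated and type VI chains, all tested, 9 rose and 0 fell in metastatic against A1G primary tumours, with a median difference of 2.22 against -0.06 over all tested genes. Col6a3, a chain of the beaded filaments to which biglycan and decorin bind, read 12.61 ± 0.50 in metastatic and 9.28 ± 0.62 in A1G primary tumours (10.1-fold, limma adjusted p = 5.51e-05). Col1a1 and Col1a2, the chains of type I collagen, rose at least 9.12-fold (adjusted p = 0.000131) and at least 5.55-fold (adjusted p = 2.33e-05). Col5a1, of the type V collagen that starts fibrils, rose 6.18-fold (adjusted p = 0.000189). The same number, 9 of 13, was called higher against Ptch1het tumours. When only genes above the median on all 12 arrays were kept, 3 of these chains were called.

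Among 22 ligands and receptors that bind these proteoglycans, 18 were tested and 4 rose, with 0 lower and a median difference of 0.38. Ccn2, a matricellular growth factor regulator that binds decorin, read 13.57 ± 0.13 in metastatic and 10.49 ± 0.40 in A1G primary tumours (8.43-fold, adjusted p = 0.000102). Ccn4, a related protein that binds decorin and biglycan, read at least 3.84-fold higher. It passed the signal filter only through the metastatic arrays, so no p-value is given for it. Bmp4, a growth factor that biglycan binds, rose at least 3.41-fold (limma adjusted p = 0.0116). Tgfb1 rose 1.67-fold (adjusted p = 0.0219). Leaving out single arrays gave Tgfb1 an adjusted p of up to 0.0668. With metastatic tumours 1 and 4 alone, 2 of the list were called.

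Proteoglycans of other families went both ways. Of 13, 8 were tested, 1 rose and 2 fell between metastatic and A1G primary tumours. Hspg2, the basement membrane proteoglycan perlecan, to which Prelp binds, rose 5.26-fold (12.14 ± 0.18 in metastatic and 9.75 ± 0.30 in A1G primary tumours, adjusted p = 0.000117). Cspg5, the neural proteoglycan neuroglycan C, fell by 2.51 on the log2 scale (7.93 ± 0.87 in metastatic and 10.44 ± 0.55 in A1G primary tumours, adjusted p = 0.00165). Cspg4, the NG2 proteoglycan of oligodendrocyte precursors and pericytes, fell by 0.63 (adjusted p = 0.0354), a call lost on leaving out single arrays (adjusted p up to 0.11). Hapln4, a link protein of perineuronal nets, differed by 1.47 and was not called. It passed the signal filter only through the metastatic arrays, so no p-value is given for it.

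Between A1G primary and Ptch1het tumours, limma called 0 of the 114 tested entries of the 12 pathway and marker lists, and 15 had an unadjusted p under 0.05, beside 6 called and 2238 with an unadjusted p under 0.05 among all 16724 genes. Against Ptch1het tumours, metastatic tumours had 4 of 18 ligands and receptors, 3 of 6 meningeal, 3 of 7 fibroblast, 7 of 8 Schwann cell, 6 of 7 muscle, 2 of 8 mural and 1 of 3 cartilage and bone genes called higher, and 0 lower, beside 6.17% of all genes called higher and 3.68% lower. Of other proteoglycans, 2 of 8 were higher and 1 lower, and of tumour markers 1 of 10 was higher and 1 lower. Several of these counts rested on single arrays. Muscle genes numbered 1 without metastatic tumour 2 and 2 without Ptch1het tumour 1. Mural genes numbered 4 without metastatic tumour 3 and 1 without metastatic tumour 2, Ptch1het tumour 1 or Ptch1het tumour 3. Fibroblast genes numbered 5 without A1G primary tumour 3, and leaving out 1 array gave 1 or 2 tumour markers.

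Other genes were ranked by how closely their pattern over the 12 arrays followed the mean pattern of the 6 tested members, as the root mean square of the log2 differences after each gene's mean was removed. Pcolce, an enhancer of procollagen processing, was nearest (0.283), followed by Gstm2, a glutathione transferase (0.294), Tgfbi, a matrix adhesion protein (0.318), C1qtnf2 (0.323) and Aebp1, a collagen-binding protein (0.371). These genes differed by 2.4 to 3.07 between metastatic and A1G primary tumours. The ranking thus follows the step through which the family was chosen, and shared regulation was not tested. By member, the nearest genes were Pcolce for Bgn (0.322), Il33 for Lum (0.432), the homeobox gene Hoxc6 for Ogn (0.435), Gstm2 for Prelp (0.411) and Tns3 for Fmod (0.261).

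Outside the metastatic group, no pair of members passed a test of correlation after adjustment. Over the 8 A1G primary and Ptch1het arrays, 10 pairs of the 5 members were correlated with exact two-sided permutation tests. The largest, Bgn with Prelp, had Pearson's r = 0.88 (p = 0.00687, adjusted over the pairs 0.0687) and Spearman's rho = 0.74 (p = 0.0458, adjusted 0.173), and r was 0.36 without the 2 arrays farthest from the median of Bgn. For Dcn with Lum, r was 0.78 (exact permutation p = 0.0213, adjusted 0.106), rho 0.71 (p = 0.0576, adjusted 0.173), and r 0.61 without the farthest 2. The 4 arrays of a genotype are too few for a test within it, so whether these relations hold within each genotype was not tested.

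Markers of several other cell types were also higher in metastatic tumours, though the muscle and mural means overlapped between groups. The part of such cells in the proteoglycan differences was not tested. Some markers exceeded the array median on no array outside the metastatic group and so could enter the test only by being high there. Among the genes called higher between metastatic and A1G primary tumours these were 4 of 6 Schwann cell, 1 of 3 meningeal and 1 of 6 muscle markers, and 1 of 9 collagens. Mfap5, Crabp2, Tnni2, Comp, Ccn4 and a further Schwann cell marker exceeded it on fewer than 4 arrays outside that group, so they too entered only through it. For all these genes a call depends on their being high there and is a description, so no p-value is given for them. With no filter on signal, the counts called were 7 Schwann cell, 5 fibroblast, 3 meningeal, 6 muscle, 2 mural and 1 cartilage and bone markers and 9 collagens. With the filter on all 12 arrays they were 1, 2, 0, 2, 2 and 0 markers and 3 collagens. Of 7 tested fibroblast markers (8 listed), 4 rose and 0 fell between metastatic and A1G primary tumours, and their mean level spanned 10.43 to 10.88 in metastatic, 7.92 to 9.07 in A1G primary and 8.22 to 9.16 in Ptch1het tumours. Mfap5, an elastic microfibril protein, read at least 14.7-fold higher. Serpinf1 rose 12.1-fold (limma adjusted p = 6.91e-05) and Fbln1, a fibulin, 3.82-fold (adjusted p = 0.00101). Pi16 passed at 0.0296, a call lost on leaving out single arrays. A1G primary tumour 3, the highest of its group for Dcn, Bgn, Lum and Prelp, also had that group's highest fibroblast mean, 9.07. In Ptch1het tumours, tumour 3 was the highest for Dcn and Lum, while tumour 2 had the highest fibroblast mean, 9.16 against 8.99 in tumour 3.

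Of 6 tested meningeal markers (8 listed), 3 rose and 0 fell. Slc47a1, a transporter, rose at least 5.46-fold (limma adjusted p = 0.00767). Crabp2, a retinoic acid binding protein, read at least 1.67-fold higher. It passed the signal filter only through the metastatic arrays, so its p-value is left out. The forkhead gene Foxc2 read at least 1.54-fold higher and exceeded the median on metastatic arrays only, so no p-value is given for it. Foxc1 missed the threshold (adjusted p = 0.0545). Foxc1 passed without Ptch1het tumour 2 (0.0302) or tumour 3 (0.016) and with only the 2 groups compared (0.0189), where 5 of the list were called. Their mean spanned 8.43 to 9.13 in metastatic, 6.98 to 7.45 in A1G primary and 7.02 to 7.82 in Ptch1het tumours, and Tbx18 exceeded the median on 0 arrays. Of 8 tested Schwann cell markers (10 listed), 6 rose and 0 fell. Not called were Sox10 and Cdh19, which differed by -0.06 and 0.34. Pmp22 rose 12.2-fold (limma adjusted p = 5.31e-07). Pmp2, a myelin lipid-binding protein, and Prx, the myelin protein periaxin, read at least 9.32-fold and at least 5.45-fold higher. Both exceeded the median on metastatic arrays only, so no p-value is given for them. The list mean spanned 9.86 to 10.3 in metastatic, 7.5 to 7.68 in A1G primary and 7.19 to 7.48 in Ptch1het tumours, and Foxd3 exceeded the median on 0 arrays.

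Skeletal muscle markers were higher too but uneven. Of 7 tested (8 listed), 6 rose and 0 fell. Among them were Tnni2, a fast-muscle troponin (at least 12.8-fold), and Atp2a1, the muscle calcium pump (at least 22.7-fold, limma adjusted p = 0.0106). No p-value is given for Tnni2, which passed the signal filter only through the metastatic arrays. The count of muscle markers called was 3 without A1G primary tumour 2, 3 without A1G primary tumour 3, and 0 with metastatic tumours 2 and 3 alone. In that last fit Atp2a1 still differed by 3.71 (adjusted p = 0.106) and Tnni2 by 3.43. The mean level of the list was 12.22, 12.9, 7.74 and 10.74 in metastatic tumours 1 to 4. It was 6.88 to 8.44 in A1G primary and 7.1 to 7.74 in Ptch1het tumours.

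Of 3 tested cartilage and bone markers (10 listed, of which Acan and Col2a1 also stand in other lists), 1 rose. This was Comp, a collagen-binding protein of cartilage and tendon, which read at least 3.31-fold higher. Comp passed the signal filter only through the metastatic arrays, so no p-value is given for it. Col2a1 did not pass (0.65, adjusted p = 0.271) but did with the replicate number as a block (0.0389), and Matn1, Cnmd, Sp7 and Dmp1 exceeded the median on 0 arrays. The list mean spanned 8.09 to 8.65 in metastatic, 7.28 to 7.67 in A1G primary and 7.67 to 7.98 in Ptch1het tumours. Of 8 tested mural cell markers (10 listed), 2 rose. These were Pdgfrb, a growth factor receptor, 2.92-fold (limma adjusted p = 0.00139) and Acta2, smooth muscle actin, 8.20-fold (adjusted p = 0.0157). The Acta2 call was lost without A1G primary tumour 2 (0.057). Of the rest, none of them called, Rgs5, Kcnj8 and Abcc9 differed by -0.19, -0.34 and 0.07, and Tagln, Notch3 and Des by 1.05, 0.78 and 1.32. Without metastatic tumour 3 the count was 4, and with the replicate number as a block Des, an intermediate filament of muscle cells, passed (difference 1.32, adjusted p = 0.0443). Their mean spanned 8.32 to 9.76 in metastatic, 7.65 to 8.57 in A1G primary and 7.73 to 8.34 in Ptch1het tumours, and Cnn1 exceeded the median on 0 arrays. Of the 10 tested tumour markers, limma called 0 between metastatic and A1G primary tumours, with 0 at an unadjusted p under 0.05. Zic1, a granule lineage factor, read 13.74 ± 0.40 in metastatic and 14.13 ± 0.24 in A1G primary tumours (adjusted p = 0.356).

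**Figure D4:**
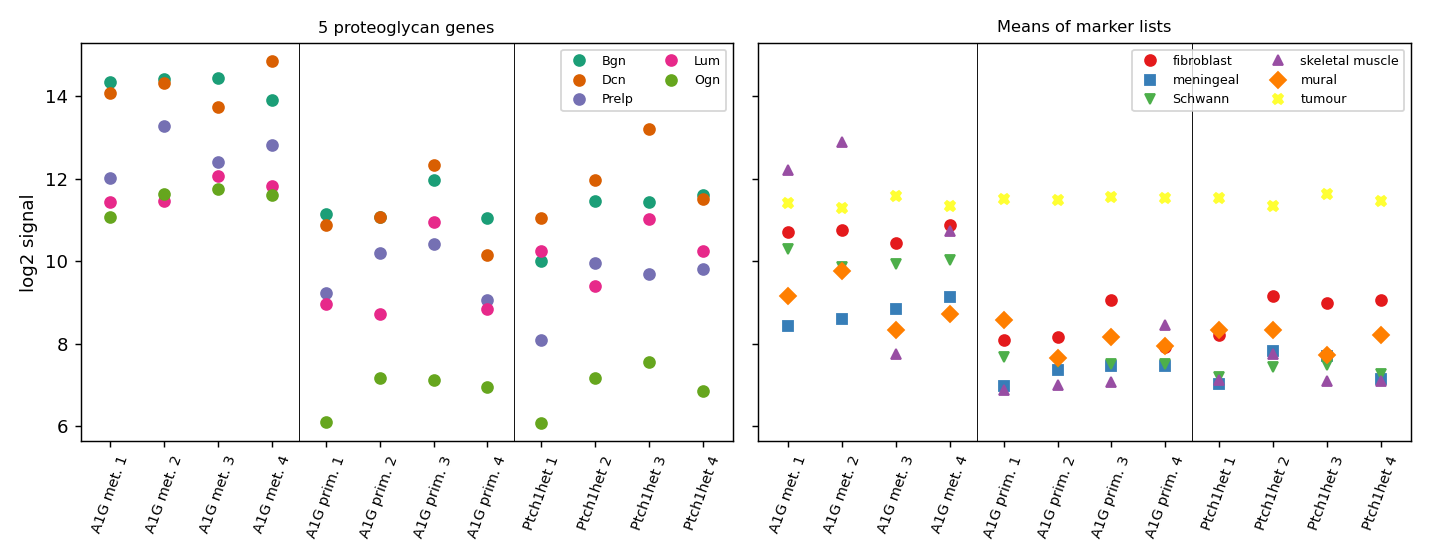
Log2 signal (vertical axis) on each of the 12 arrays (horizontal axis) for Bgn, Dcn, Prelp, Lum and Ogn (left) and for the mean of the tested genes of 6 marker lists (right). Fibroblast, meningeal and Schwann cell means are higher on all 4 metastatic arrays than on any other, the muscle mean runs from 7.74 to 12.9 among them, and the tumour marker mean stays between 11.3 and 11.64 on all arrays.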

How the data were processed

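The deposited table gives linear-scale intensity for 45281 probes on 12 arrays. The medians of its arrays lie at 187.0 to 187.1, so the deposited intensity values had been normalized by the authors between arrays, by a method not stated in the labels. Per the labels' protocols, RNA was extracted with Trizol, treated with DNase I and labelled as biotinylated cRNA. A further deposited table holds 24 per-array columns that match no sample label; these were not used, and only its gene symbols were read. No label ties a tumour to a slide, so slide was not tested.

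Intensities were corrected with normexp (offset 50), quantile normalized and put on the log2 scale in limma 3.58.1 (R 4.3.3). Leaving out the quantile step again gave 749 genes higher and 124 lower between metastatic and A1G primary tumours, with unchanged member differences. That alternative is therefore no separate check. Of the probes, 27740 carried a current gene symbol, 8037 an older synonym that was updated, and 9504 kept theirs. Probes above their array's median on at least 4 arrays were kept (24443, or 54%), and each gene was read by its probe with the highest mean, giving 16724 genes. A model with 3 groups over 12 arrays was fitted (lmFit, then eBayes; residual degrees of freedom 9, prior 3.67), with Benjamini-Hochberg adjustment over all genes and a threshold of 0.05. Folds written "at least" set each dim array to the higher of its own value and its median. The fit was checked on simulated data. The number of arrays limits the precision.

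The members and the gene lists were chosen with earlier results of these data known. All members are named, and of each list the 4 genes with the smallest p between metastatic and A1G primary tumours could be named. Podn, Chad, Sox10, Cdh19, Rgs5, Kcnj8, Abcc9 and Tagln, and genes given as not above the median, were named after their values were seen. A few of these list and nearest genes are not reported here. Deviations from the group means of tumours with the same replicate number correlated at 0.453, 0.167, 0.211 and 0.271 between A1G metastatic and A1G primary tumours. Tumours with different numbers were not compared, so whether the numbers pair these groups was not tested. No label says what tumours of the same number share. Between A1G primary and Ptch1het tumours the values were 0.173, -0.009, 0.079 and 0.342, and between A1G metastatic and Ptch1het tumours 0.035, 0.013, -0.075 and 0.083. Alternatives changed the background correction, normalization, filter, choice of probe, samples in the fit and replicate block, and left out each array. Upstream sequences and gene order came from RefSeq (GRCm38.p6). Other scripts used Python 3.11.15, pandas 2.3.3 and SciPy 1.17.1.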

Additional observations from a re-analysis of the deposited data

Results flagged for a closer look

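In 4 of the 24 groups of 4 arrays examined for the 8 genes, 1 array stood apart by Dixon's ratio, its gap to the nearest other array over the range of the group; chance alone marks about 1 in 20 such groups. In A1G primary tumours, tumour 3 was the highest array for Bgn, with a ratio of 0.901, and for Lum, with a ratio of 0.894. In Ptch1het tumours, tumour 1 was the lowest array for Bgn, with a ratio of 0.893, and for Prelp, with a ratio of 0.862. Without A1G primary tumour 3 the difference in Bgn between A1G primary and Ptch1het tumours was -0.03, and without Ptch1het tumour 1 it was -0.18, against 0.20 with all arrays.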

How the results depend on the processing

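Of 450 values of the members under other settings, 437 kept their direction and moved by less than the spread between arrays, 6 moved further and 7 changed sign. Many of these settings could not move a difference, so their agreement was fixed in advance. The replicate block is balanced, and arrays of the group not compared do not enter a difference. Dropping the quantile step, or changing the filter where the same probe is kept, also returned the same differences. The 6 that moved were all for Ogn: its difference between metastatic and A1G primary tumours was 4.13 without background correction, 5.23 with a normexp offset of 16 and 2.84 as the mean of its probes, and between metastatic and Ptch1het tumours 4.06, 5.13 and 2.83. One sign change was between metastatic and A1G primary tumours, where Fmod was -0.09 without A1G primary tumour 3. The others were between A1G primary and Ptch1het tumours: Ogn 0.17 without A1G primary tumour 1, 0.00 without Ptch1het tumour 2 and 0.13 without Ptch1het tumour 3; Bgn -0.03 without A1G primary tumour 3 and -0.18 without Ptch1het tumour 1; Prelp -0.10 without Ptch1het tumour 1. Leaving out 1 array gave -0.36 to 0.17 for Ogn, -0.18 to 0.35 for Bgn and -0.10 to 0.55 for Prelp. Omd and Aspn have values only without the filter. Members called higher in metastatic than in A1G primary tumours numbered 4 to 5 over all settings. The 4 arose with the filter on all 12 arrays, which removes Ogn, and with metastatic tumours 1 and 4 or 2 and 3 alone, without Lum. Against Ptch1het tumours they numbered 3 to 6 (6 with only the 2 groups compared), and between A1G primary and Ptch1het tumours 0 in every setting. Of all genes, 873 were called between metastatic and A1G primary tumours, 428 with the filter on all 12 arrays, 425 with metastatic tumours 1 and 4 alone, and 605 to 963 leaving out 1 array. The replicate block gave 970, and 1462 with only the 2 groups compared, an alternative added after the data were seen. It changed no call of a member in this comparison. Between A1G primary and Ptch1het tumours 6 genes were called, 3 with the filter on all 12 arrays, 3 with the block and only these groups, and 4 to 60 leaving out 1 array (10 without Ptch1het tumour 2, 60 without Ptch1het tumour 4). Between metastatic and Ptch1het tumours 1647 were called, 1042 with only these groups and 749 with the block as well. With metastatic tumours 1 and 4 alone 601 were called, and 734 with 2 and 3. Leaving out 1 array gave 791 to 1645 (791 without metastatic tumour 2, 1007 without 4). With the block alone 1895 genes were called, and Lum was added, giving 5 members. The causes were not tested. A block for the slide was not run, because the sources used here do not tie tumours to slides. Signal near the array median limits Ogn outside metastatic tumours, Fmod, Omd and Aspn.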
